A study of Homo sapiens with 2 samples.

Results

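To examine RFX6 occupancy at the genes of the protein-folding machinery, 87 molecular chaperone genes were looked up in the ChIP-seq peak list of MHCC-97H cells. They were all protein-coding genes of 20037 in RefSeq (GRCh38.p14) whose symbols start with DNAJ, HSPA, HSPB, HSPD, HSPE, HSPH or HSP90, or with CCT and a digit, plus TCP1, HSF1 and HSF2. MHCC-97H is a human hepatocellular carcinoma (HCC) cell line, here overexpressing RFX6, a member of the regulatory factor X family of transcription factors, from a plasmid that adds an HA tag. The series holds 1 HA-RFX6 ChIP library, precipitated with an anti-HA antibody, and 1 input library from the same line, for which the labels name no overexpression. Only the ChIP library has a peak list analysed here, so the comparison is between genes and not between conditions. There were no replicates, hence no error between replicates and no test could be given, and the read depth was unknown. A peak in cells that overexpress a tagged factor does not show where the endogenous protein sits, and a tag-only control was not analysed here. The list held 5019 distinct intervals on chromosomes 1 to 22 and X. Each carries a whole-number score from 13 to 170 (median 30) whose meaning is not stated, so the score was read only as a rank within the list.

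Molecular chaperones bind unfolded proteins and help them to fold, refold after stress or be degraded. HSP70 proteins (HSPA genes) bind and release clients in a cycle driven by ATP, J-domain proteins (DNAJ genes) bring clients to them and stimulate that ATPase, and HSP90 proteins act later on maturing clients such as kinases and steroid receptors. The ring-shaped chaperonins enclose clients in a cavity. The cytosolic chaperonin TRiC is built from CCT subunits and TCP1, and the mitochondrial one from HSPD1 and HSPE1. Many of these genes are switched on by heat shock factors, headed by HSF1, at heat shock elements. The liver makes and secretes large amounts of protein and thus relies on them.

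An interval was assigned to a gene when its midpoint was within 1 kb of either end of the gene, or else inside the gene body. The promoter table lists 1 or more transcription starts for 78 of the 87 genes. Among the members with an interval overlapping the window around a listed start (250 bases before to 50 after), the highest-scored were taken, and the 250 bases before the start are shown for 7 of them, so that the part of each promoter inside an interval can be seen. They are RefSeq sequence (GRCh38.p14), written 5′ to 3′ on the strand of the gene, and capitals mark the bases inside a deposited interval. Intervals may extend beyond the printed stretch. The window of CCT5 would rank among these promoters but is left out, since it lies inside the gene close to its outer end. The window of DNAJB1 also lies inside its gene, but far from the outer end, and is shown.
HSPA9 (chr5:138575402-138575651, minus strand): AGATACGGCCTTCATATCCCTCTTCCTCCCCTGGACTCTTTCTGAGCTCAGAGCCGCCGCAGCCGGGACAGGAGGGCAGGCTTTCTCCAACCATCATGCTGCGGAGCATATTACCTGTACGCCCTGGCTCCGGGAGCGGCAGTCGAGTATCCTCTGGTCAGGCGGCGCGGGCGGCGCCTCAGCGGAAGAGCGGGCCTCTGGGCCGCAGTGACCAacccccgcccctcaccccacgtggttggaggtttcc
HSP90AA1 (chr14:102139750-102139999, minus strand): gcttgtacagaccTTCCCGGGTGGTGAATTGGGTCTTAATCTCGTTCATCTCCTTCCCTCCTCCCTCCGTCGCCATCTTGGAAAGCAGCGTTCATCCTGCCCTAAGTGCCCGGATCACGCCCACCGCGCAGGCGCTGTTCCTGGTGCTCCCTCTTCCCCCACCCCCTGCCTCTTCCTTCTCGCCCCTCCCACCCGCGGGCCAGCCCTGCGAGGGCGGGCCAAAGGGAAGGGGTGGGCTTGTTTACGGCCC
DNAJA2 (chr16:46973675-46973924, minus strand): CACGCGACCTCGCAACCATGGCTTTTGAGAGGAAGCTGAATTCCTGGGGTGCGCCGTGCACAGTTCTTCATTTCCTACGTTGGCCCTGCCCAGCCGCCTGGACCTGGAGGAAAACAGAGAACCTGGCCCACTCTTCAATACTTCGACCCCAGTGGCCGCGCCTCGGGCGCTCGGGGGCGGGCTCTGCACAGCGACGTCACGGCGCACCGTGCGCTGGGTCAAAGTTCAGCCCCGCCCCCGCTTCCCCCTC
CCT3 (chr1:156338293-156338542, minus strand): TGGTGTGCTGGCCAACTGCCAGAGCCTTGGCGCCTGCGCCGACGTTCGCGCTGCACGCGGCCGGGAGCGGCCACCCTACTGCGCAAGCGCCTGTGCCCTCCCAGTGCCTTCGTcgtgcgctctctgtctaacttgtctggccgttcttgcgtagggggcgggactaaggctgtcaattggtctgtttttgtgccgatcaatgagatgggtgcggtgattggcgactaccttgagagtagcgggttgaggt
DNAJB1 (chr19:14518398-14518647, minus strand): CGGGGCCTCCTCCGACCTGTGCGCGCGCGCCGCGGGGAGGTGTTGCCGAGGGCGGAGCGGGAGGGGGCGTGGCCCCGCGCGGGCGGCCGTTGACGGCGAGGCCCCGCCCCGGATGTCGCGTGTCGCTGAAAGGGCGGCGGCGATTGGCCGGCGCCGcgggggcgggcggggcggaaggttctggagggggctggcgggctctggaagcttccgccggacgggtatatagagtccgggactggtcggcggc
CCT8 (chr21:29073649-29073898, minus strand): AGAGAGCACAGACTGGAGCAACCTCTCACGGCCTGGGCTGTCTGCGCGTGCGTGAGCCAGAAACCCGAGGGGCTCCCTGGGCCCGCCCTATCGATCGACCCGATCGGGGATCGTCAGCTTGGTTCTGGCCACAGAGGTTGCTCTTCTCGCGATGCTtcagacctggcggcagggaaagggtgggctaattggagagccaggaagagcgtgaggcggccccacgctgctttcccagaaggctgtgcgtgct
HSP90B1 (chr12:103930160-103930409, plus strand): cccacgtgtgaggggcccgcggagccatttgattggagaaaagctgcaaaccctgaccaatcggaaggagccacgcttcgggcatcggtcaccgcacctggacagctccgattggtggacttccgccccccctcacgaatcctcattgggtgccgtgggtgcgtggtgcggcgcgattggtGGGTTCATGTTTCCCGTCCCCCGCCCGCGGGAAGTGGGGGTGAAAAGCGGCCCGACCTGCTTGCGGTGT
In HSPA9 and HSP90AA1 the interval covered 214 and 237 of these 250 bases, respectively, and in DNAJA2 it covered all 250. In HSP90B1 only the 69 bases next to the start were inside the interval.

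Intervals were found at 21 of the 87 chaperone genes (24.1%), whereas 19.5% of all protein-coding genes had one. Within 1 kb of a gene end there were 19 members (21.8%), against 15.5% of all protein-coding genes. In the body only, there were 2 members (2.3%), against 4.06%. When only listed starts were considered, 17 of the 78 members with a listed start had an interval within 1 kb (21.8%), against 16.3% of the 15842 protein-coding genes with a listed start. The members' shares were thus somewhat above the background at gene ends and starts, but without replicates this difference could not be tested. With intervals listed on a single line only, 11 members (12.6%) had one at a gene end, against 12% of all protein-coding genes. The members were not longer than other genes, with a median length of 18698 bp compared with 24115 bp.

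The members with an interval were spread unevenly over the families. Families were set by symbol alone. Related genes with other symbols, such as TRAP1 (no interval) and HYOU1 (score 20), were counted only with the co-chaperones below. All 3 genes with the HSP90 prefix and 6 of the 10 cytosolic chaperonin genes were marked at a gene end. Of DNAJC genes, 3 of 29 were (10.3%), and of HSP70 genes 2 of 14 (14.3%), which is near the 15.5% of all protein-coding genes. There were 1 of 4 DNAJA genes, 3 of 12 DNAJB genes and 1 of 7 small heat shock protein genes. No interval lay at HSPH1, the only member with the HSPH prefix, at HSPBP1 and HSPBAP1, which the prefix brings in, or at HSF1 and HSF2. None lay either at the mitochondrial chaperonin genes HSPD1 and HSPE1 or at the readthrough gene HSPE1-MOB4, grouped with them. HSPE1-MOB4 shares the start of HSPE1. These families are small, and the difference between them was described, not tested.

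**Figure D1:**
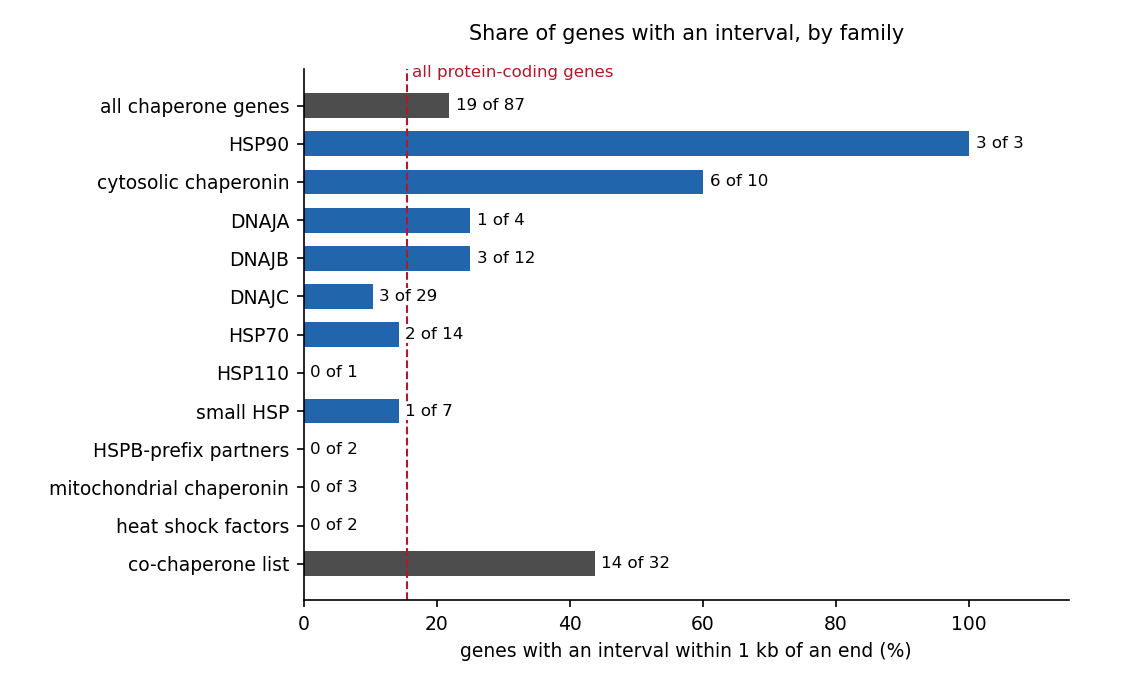
Share of genes with an interval within 1 kb of a gene end (x axis, per cent) for all chaperone genes, each family and the co-chaperone list; the labels give genes with an interval of genes in the group, and the dashed line is the share among all protein-coding genes (15.5%). HSP90 (3 of 3) and the cytosolic chaperonin (6 of 10) extend far beyond the line, and 4 families are at 0. Families were set by symbol, so HSP110 is HSPH1 alone and TRAP1 is on the co-chaperone list. The genes and lists were chosen with earlier results of these data known.

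The 3 genes with the HSP90 prefix were examined first. HSP90AA1 encodes the stress-inducible cytosolic HSP90α. It had 1 interval at chr14:102139414-102139986, 573 bp wide, with a score of 45 (83.1% of the intervals scored no higher). This interval spanned the outer start of the gene, with its midpoint 49 bp downstream, and an end of WDR20 was also within 1 kb. The other listed start of HSP90AA1 lay 52656 bp downstream of the midpoint, and no interval was found there. HSP90AB1, the constitutive HSP90β, had an interval of 200 bp at chr6:44245638-44245837 with a score of 30. Its midpoint was 457 bp upstream of the first of 3 listed starts, 1364 bp from the next and 2206 bp from the last. HSP90B1 encodes GRP94, the HSP90 of the endoplasmic reticulum. Its interval at chr12:103930341-103930627, also had a score of 30 and spanned the start, from 69 bp before it to 217 bp after it.

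Next, the subunits of the cytosolic chaperonin TRiC were inspected, which folds actin, tubulin and other cytosolic proteins. CCT5 had 2 intervals, namely chr5:10249590-10249821 with a score of 55 and chr5:10250278-10250754 with a score of 44. Both were also within 1 kb of an end of the neighbouring ATPSCKMT. CCT3 had an interval at chr1:156338430-156338724 with a score of 42, centred 285 bp upstream of its start. At CCT6A, the interval at chr7:56051561-56051899 had a score of 41, and its midpoint was 35 bp from the low-coordinate end of the gene, with an end of PSPH within 1 kb. CCT8 had 2 intervals flanking the start, 1 centred 204 bp upstream with a score of 36 (chr21:29073743-29073961) and 1 centred 143 bp downstream with a score of 22 (chr21:29073401-29073609). The CCT2 interval at chr12:69585386-69585736, was among the weakest with a score of 17. At TCP1, which encodes the α subunit, the interval at chr6:159790399-159790703 had a score of 35. It was centred 949 bp upstream of the start, just inside the limit of 1 kb, and an end of MRPL18 was also within 1 kb. The other 4 genes were CCT4 and CCT7, CCT6B, a relative of CCT6A, and CCT8L2. The nearest interval was more than 100 kb away from each of them. Thus 6 of the 10 genes had an interval at an end, against 15.5% of all protein-coding genes. All 6 were among the 8 genes for TRiC subunits proper (TCP1, CCT2, CCT3, CCT5, CCT6A and CCT8, but not CCT4 or CCT7). With intervals listed on a single line only, 3 of the 10 kept one.

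Among HSP70 genes, 1 interval stood out. HSPA9 encodes mortalin, the HSP70 of the mitochondrial matrix. Its interval at chr5:138575438-138575986 was 549 bp wide and was listed on 2 lines, with scores of 80 and 50. A score of 80 ranked 50 of 5019 and was the highest among the members. The interval ran from -585 to -37 bp relative to the start. The other HSP70 gene was HSPA1L, a relative of the inducible HSP70 genes that is expressed mainly in testis. Its interval at chr6:31809676-31810173 with a score of 33, lay at the far end, 5359 bp downstream of the start. No interval was assigned to the inducible HSPA1A and HSPA1B or to HSPA6. An interval between HSPA1A and HSPA1B, chr6:31822059-31822488 with a score of 25, had its midpoint 4331 bp beyond HSPA1A and 5465 bp before HSPA1B. These 2 genes are near-identical copies, so reads from either could be lost or misplaced, and how such reads were handled is not stated. Nor was an interval assigned to HSPA8, the constitutive cytosolic HSP70, where the nearest was 133879 bp away, or to HSPA5, the HSP70 of the endoplasmic reticulum (BiP), where it was 20608 bp away.

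The J-domain proteins were the largest group, with 45 genes, of which 7 had an interval at a gene end and 9 had one at an end or in the body. These shares, 15.6% and 20%, were at the background of 15.5% and 19.5%. DNAJA2, a general cytosolic partner of HSP70, had an interval at chr16:46973575-46973987 spanning the start, with scores of 43 and 26 on its lines. DNAJB6, a suppressor of protein aggregation, had 3 intervals. The first, chr7:157337219-157337548 with a score of 47, was centred 379 bp downstream of the start, and those at chr7:157352515-157352768 and chr7:157405067-157405339 lay in the body with scores of 17 and 13. DNAJB9 encodes ERdj4, which assists BiP. Its interval at chr7:108569612-108570151 was centred 7 bp from the start and was listed on 4 lines with scores from 17 to 27. An end of THAP5 was also within 1 kb. DNAJB12, a J-domain protein in the membrane of the endoplasmic reticulum, had an interval at each end. The interval at the start (chr10:72354868-72355108) had a score of 17, and that beyond the far end (chr10:72332030-72332233) had a score of 30.

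DNAJB1 encodes the main stress-inducible cytosolic HSP40. By gene ends it counted only as having intervals in the body, yet both of its intervals lay at listed starts inside the gene. The interval chr19:14518492-14518691 had a score of 37 and was centred 194 bp upstream of 1 listed start. The interval chr19:14518046-14518245 had a score of 29 and was centred 208 bp upstream of another. The remaining listed start, farther out, was more than 10 kb from either. The classification by gene ends therefore understated DNAJB1.

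**Figure D2:**
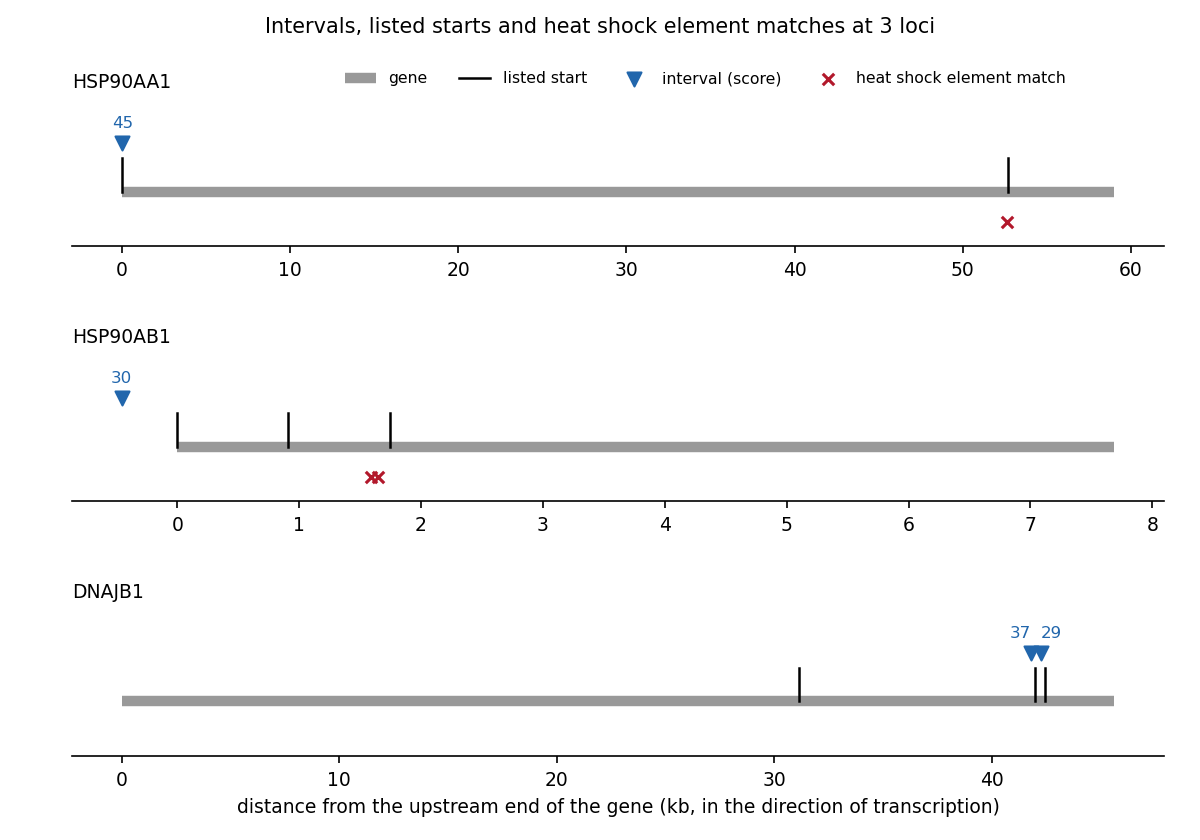
Positions of intervals (triangles, with scores), listed starts (black lines) and matches to the heat shock element (crosses) along HSP90AA1, HSP90AB1 and DNAJB1; the x axis is the distance from the upstream end of each gene in kb, in the direction of transcription, and its range differs between panels. The intervals at both HSP90 genes sit at the outermost start while the matches sit at the innermost, and those at DNAJB1 sit at the inner starts.

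The intervals at the ends of DNAJC genes had low scores. DNAJC5, a cysteine string protein of synaptic and secretory vesicles, had an interval at chr20:63894389-63894612 with a score of 21, centred 626 bp upstream of the start. DNAJC7, which binds both HSP70 and HSP90, had an interval at chr17:42017796-42018015 at the lowest score of the list, 13, with an end of NKIRAS2 within 1 kb. At DNAJC17, which has a role in splicing, the interval at chr15:40764093-40764402 with a score of 28 was at the far end, 43226 bp from the start, and an end of GCHFR was within 1 kb. The readthrough gene DNAJC25-GNG10 had an interval in the body at chr9:111661749-111662002, with a score of 39, which lay within 1 kb of an end of GNG10. It was 7530 bp beyond the end of DNAJC25 itself, which had none. Among the small heat shock proteins, only HSPB1 (HSP27, an inducible chaperone that holds unfolding proteins) had an interval. This was at chr7:76302755-76303098, with a score of 43, and was centred 253 bp downstream of the start.

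**Figure D3:**
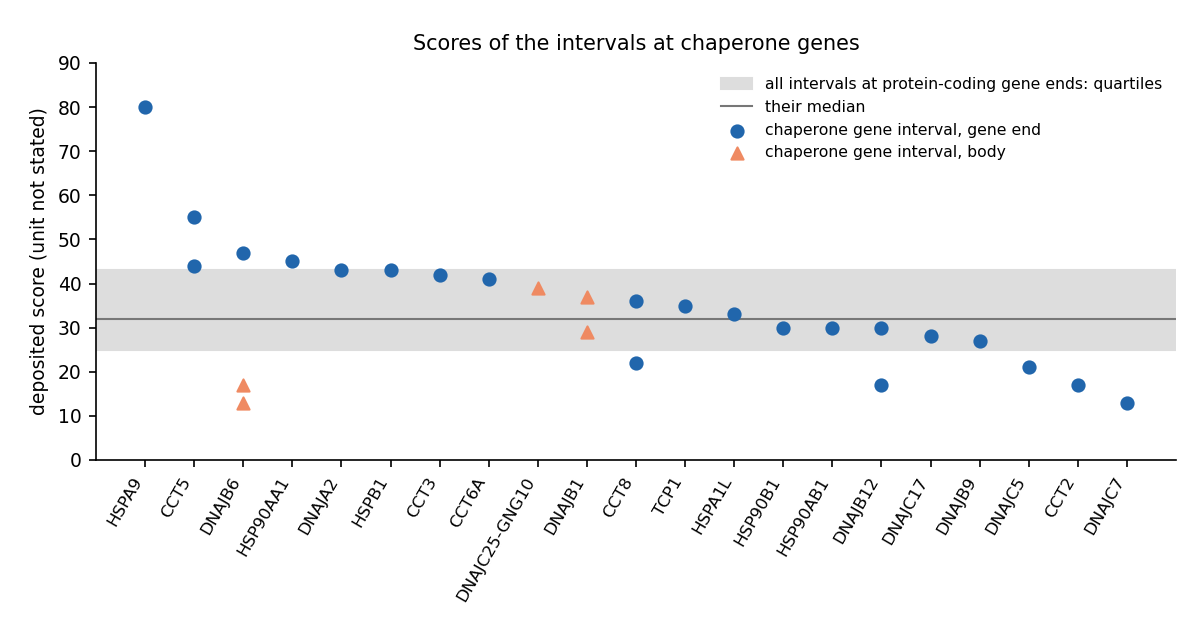
Deposited score (y axis, unit not stated) of each of the 27 intervals at the 21 chaperone genes (x axis, ordered by highest score), as circles at gene ends and triangles in the body; the grey band gives the quartiles (25 to 43) and the line the median (32) of all intervals at protein-coding gene ends. By highest score per gene, HSPA9 stands above the other genes at 80, and DNAJC7 and CCT2 are lowest at 13 and 17. DNAJB6 and DNAJB12 also have intervals with scores this low.

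By median score, the members were close to other genes. The highest score per gene had a median of 35 in the 19 members with an interval at a gene end and 33 in the 3100 protein-coding genes with one, with quartiles of 29 and 43 against 26 and 45. With a score of at least 30, 14 members (16.1%) kept an interval at a gene end, against 9.5% of all protein-coding genes. Of the intervals at member ends, 68.2% had such a score, against 57.1% of all intervals at protein-coding gene ends. This difference was not tested. The width of the 22 intervals at member ends had a median of 307.5 bp, compared with 282 bp over all 3054 intervals at protein-coding gene ends. Of these 22 intervals, 8 (36.4%) were also within 1 kb of an end of another protein-coding gene, namely at HSP90AA1, CCT5 (both intervals), CCT6A, TCP1, DNAJB9, DNAJC7 and DNAJC17, whereas 18.1% of all such intervals were shared by neighbouring genes. To which of the neighbours such an interval belongs cannot be told from the list.

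The position relative to the start was then compared. There were 20 intervals within 1 kb of a listed start of a member, and 13 of them had their midpoint within 300 bp. The midpoint was upstream of the start in 13 and downstream in 7, and the median offset was -150.5 bp. Over all 3013 such interval and gene combinations, 44.4% were upstream and the median offset was 34 bp. The median distance, regardless of direction, was 206 bp in the members and 178 bp in all.

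**Figure D4:**
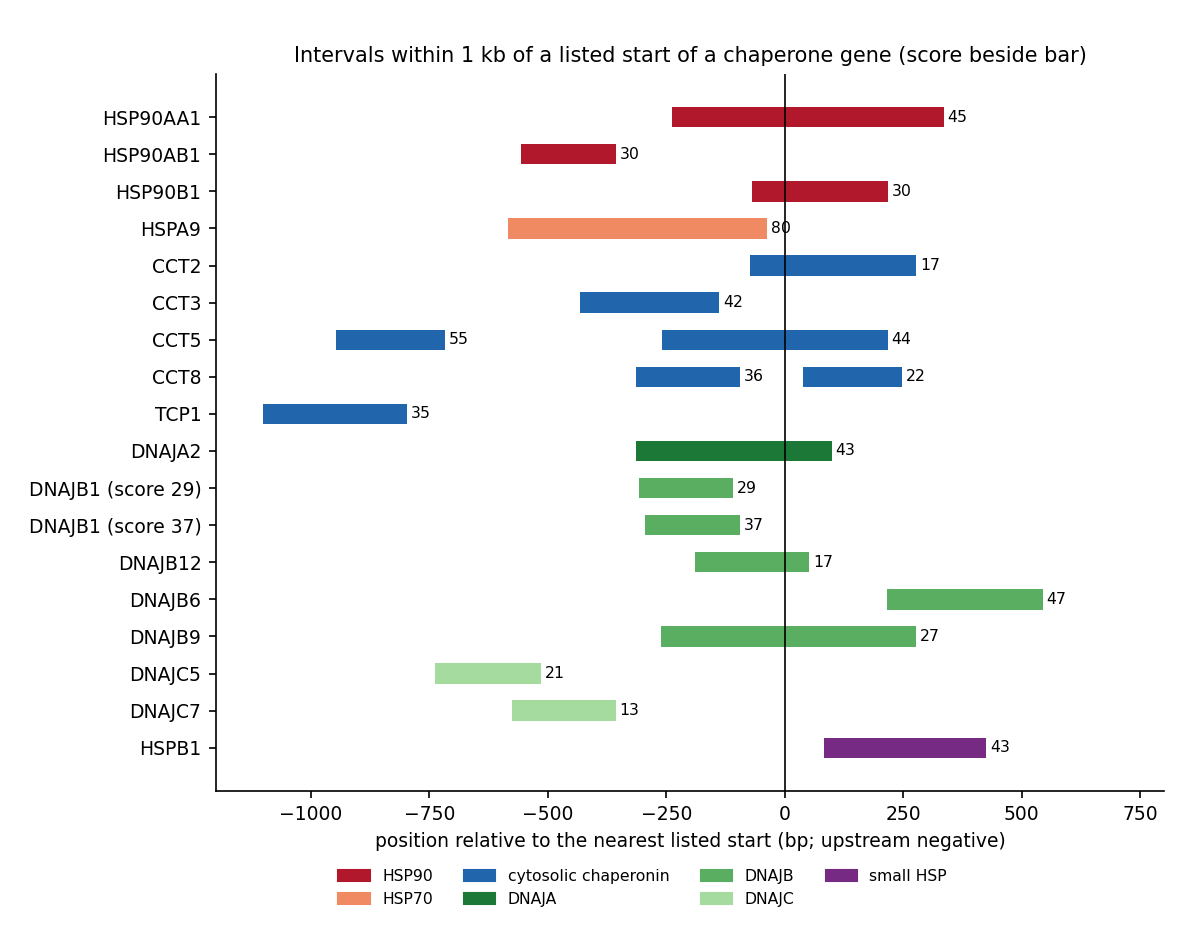
Extent of the 20 intervals within 1 kb of a listed start of 17 chaperone genes, coloured by family, with the score beside each bar; the x axis is the position relative to the nearest listed start in bp, with upstream negative. In HSP90AA1, HSP90B1, CCT2, CCT5, DNAJA2, DNAJB12 and DNAJB9 a bar crosses the start, and the TCP1 interval lies farthest upstream. The listed start of CCT5 lies inside the gene, and the interval crossing it was centred 595 bp from the outer end of the gene.

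The promoter windows were searched for known motifs on both strands. The windows run from 250 bases before a listed start to 50 bases from it on, and the members have 102 of them, of which an interval overlapped 13 in 11 genes. A heat shock element was defined as 3 units, GAA, TTC and GAA or TTC, GAA and TTC, with 2 bases between units. It was found in 7 member windows (6.86%), against 89 of 22175 windows of all protein-coding genes (0.401%). These were in HSPA6, HSPA8, HSPD1, DNAJA1, DNAJB6, HSP90AA1 and HSP90AB1. None of the 7 windows was overlapped by an interval, compared with 13 of all 102 member windows. Over all protein-coding genes, 4 of the 89 windows with the element were overlapped, compared with 2285 of all 22175 windows. With so few windows, this absence was not tested. Elements that depart from the strict form were not counted, and the stress-inducible HSPA1A, HSPA1B, HSPB1, DNAJB1 and HSPH1 had no match. In HSP90AA1, the match lay from -88 to -76 relative to the inner start, and the interval was at the outer one. In HSP90AB1, 2 matches preceded the last of the listed starts, from -165 to -153 and from -112 to -100, and the interval was upstream of the first. In DNAJB6, the match was from -131 to -119 and the interval began downstream of the start. HSPA6, HSPA8, HSPD1 and DNAJA1 had no interval at all.

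The endoplasmic reticulum stress element, CCAAT and CCACG with 9 bases between them, through which the unfolded protein response acts, was present in the windows of HSPA5 and HSP90B1 (2 of 102, 1.96%) and in 0.104% of all windows. In HSP90B1, whose sequence is printed above, it occurred from -194 to -176 and from -89 to -71, and both matches lay upstream of the interval, which began at -69. In HSPA5, the match was from -66 to -48, without an interval. For RFX proteins, the motif GTTGCC was found in 2 of the 13 overlapped windows (15.4%), at CCT2 and DNAJB1, in 10 of the 89 other member windows (11.2%) and in 12.6% of all windows. The paired form, GTTNCC and GGNAAC with 2 bases between them, was in 0 of the 13 overlapped windows. It was present in 2 member windows (1.96%), at DNAJB4 and DNAJA1, neither of which had an interval, and in 0.514% of all windows. The DNAJB1 match to GTTGCC, from -209 to -204, was inside the interval, as the capitals of its sequence show. The CCT2 match, from -180 to -175, was outside its interval, which began at -73. The CCAAT box, which is part of the stress element above, was in 8 of the 13 overlapped windows (61.5%), in 36% of the other member windows and in 34.7% of all. A CCAAT match lay inside an interval only at HSP90AA1, DNAJB9 and the DNAJB1 window printed above. At CCT2, CCT3, CCT8, HSP90B1 and the other overlapped DNAJB1 window, the matches were outside the intervals. Over all protein-coding genes, the box was in 34.1% of the overlapped windows and 34.7% of the others. A match is only a match of letters in this window, and an interval can hold motifs outside it.

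Over all protein-coding genes, base composition moved with the presence of an interval. Windows overlapped by an interval had a median GC content of 69.7%, and the others 61.3%. In the members the medians were closer, at 66% and 63.7%. The ratio of observed to expected CpG was 0.885 and 0.702 in all, and 0.834 and 0.827 in the members. The part of base composition in the motif counts was not tested.

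The 66 members without an interval had their nearest one at a median of 75213.5 bp. Of these, 9 had an interval within 10 kb and 28 had none within 100 kb. Closest was DNAJC16, with an interval of score 37 at 2160 bp, and the next were DNAJB14 at 3639 bp and DNAJC4 at 4032 bp. The mitochondrial chaperonin genes HSPD1 and HSPE1, which lie head to head on chromosome 2, had their nearest interval at 33014 and 46809 bp. The nearest interval was 22889 bp from HSF1 and 2666640 bp from HSF2, an HSF1-related factor. Among the J-domain genes, those without an interval were DNAJA1, DNAJA3 and DNAJA4, further DNAJB2, DNAJB4, DNAJB5, DNAJB7, DNAJB8, DNAJB11, DNAJB13 and DNAJB14, and DNAJC1, DNAJC2, DNAJC3, DNAJC4, DNAJC6, DNAJC8, DNAJC9, DNAJC10, DNAJC11, DNAJC12, DNAJC13, DNAJC14, DNAJC15, DNAJC16, DNAJC18, DNAJC19, DNAJC21, DNAJC22, DNAJC24, DNAJC25, DNAJC27, DNAJC28, DNAJC30, DNAJC5B and DNAJC5G. Among the HSP70 genes they were HSPA2, HSPA4, HSPA5, HSPA6, HSPA8, HSPA13, HSPA14, HSPA1A, HSPA1B, HSPA4L, HSPA12A and HSPA12B, and among the small heat shock proteins HSPB2, HSPB3, HSPB6, HSPB7, HSPB8 and HSPB9. Since the read depth is unknown, a member lacking an interval may simply have had too few reads.

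Some of the members were listed by compartment and inducibility. These lists are partial, and DNAJB12 of the endoplasmic reticulum, which had intervals, was not on them. Intervals at an end or in the body were found in 2 of 8 listed genes of the endoplasmic reticulum (HSP90B1 and DNAJB9) and 1 of 7 listed mitochondrial genes (HSPA9). These shares were 25% and 14.3%, against 19.5% of all protein-coding genes. Intervals were also found in 3 of 7 listed stress-inducible cytosolic genes (DNAJB1, HSPB1 and HSP90AA1, 42.9%) and 3 of 5 listed constitutive cytosolic genes (HSP90AB1, DNAJA2 and DNAJC7, 60%). No group was without an interval, and the groups are too small to be ordered.

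Finally, 32 co-chaperones and other folding factors whose symbols fall outside the rule for the members were looked up. An interval at a gene end was found in 14 of them (43.8%), against 15.5% of all protein-coding genes. At an end or in the body, 16 of them (50%) had one, against 19.5% of all protein-coding genes. They included BAG1, BAG3, BAG4, BAG5 and BAG6 of the 6 BAG genes, which encode nucleotide exchange factors of HSP70 or relatives of those factors. The scores were 48 and 25 at BAG1, 34 at BAG3, 22 at BAG4, 28 at BAG5 and 37 at BAG6. Of the exchange factors of other compartments, SIL1 (score 45), HYOU1 (20) and GRPEL2 (30) had an interval too, but GRPEL1 had none. STUB1, the ubiquitin ligase CHIP that works with HSP70 and HSP90, had a score of 27. For partners of HSP90, the score was 17 at AHSA1, its ATPase activator, and 17 at FKBP4. The other genes were PFDN4 (48), CLPB (22) and PDIA3 (18), while FKBP5 (39 and 35) and CANX (39) had intervals in the body within 1 kb of a listed start. STIP1 and CDC37, which deliver clients to HSP90, had none. None was found either at BAG2, PFDN1, PFDN2, PFDN5, PFDN6, VBP1, PTGES3, ST13, SUGT1, UNC45A, TRAP1, CALR and SERPINH1. With a score of at least 30, 6 of the 32 genes had an interval at a gene end (18.8%), against 9.5% of all protein-coding genes. The list was chosen with earlier results of these data known, so its share is only a description. Whether its intervals are shared with neighbouring genes was not counted.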

How the data were processed

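The deposited file is a list of ChIP-seq peaks of HA-RFX6-overexpressing MHCC-97H cells, with a chromosome, start, end, name and whole-number score per line. The authors called peaks with MACS 2.1.0.2 at a q-value threshold of 0.01, per the study's methods. What the deposited score stands for, the aligner and the control library are not given in the sources used here. The submitters' processing notes name GRCh37. However, 60.8% of the intervals lay within 1 kb of a protein-coding gene end of GRCh38.p14, against 7.65% and 8.11% after moves of 20 kb, and coordinates are therefore given as GRCh38. They are 1-based.

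The list held 6214 lines, of which 1 had split coordinates that were put back together. Identical positions were counted once with the highest score, and 3 mitochondrial intervals were left out. Gene positions, starts and promoter sequences came from RefSeq tables (GRCh38.p14), which give no exons. The members and lists were chosen with earlier results of these data known. Named genes were all members with an interval and 13 set members. Sequences were to be shown for at most 8 members by score, and 1 of these was left out after it was seen. The planned motif classes were joined by the CCAAT box after the data were seen. The counting was tested on simulated data. Alternatives were scores of at least 20 or 30, windows of 2 and 5 kb, any overlap, merging within 1 kb, the nearest gene end only, intervals on a single line, and other gene sets. Python 3.11.15, numpy 2.4.6, pandas 2.3.3 and matplotlib 3.10.9 were used.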

Additional observations from a re-analysis of the deposited data

How the results depend on the processing

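The number of members with an interval within 1 kb of a gene end, 19, ranged from 14 to 24 under all alternatives except intervals on a single line. With a score of at least 30, CCT2, DNAJB9, DNAJC5, DNAJC7 and DNAJC17 dropped out, and with a score of at least 20 only CCT2 and DNAJC7. By the nearest gene end, DNAJC7, DNAJC17 and TCP1 went to a neighbour. Within 5 kb, DNAJB1, DNAJB14, DNAJC4, DNAJC16 and HSPA1A were added. In each of these the share of all protein-coding genes moved too, from 15.5% to between 9.5% and 19.8%. Intervals on a single line left 11 members at a gene end, 12 in all, 10 at a start and 1 in the body only, with 3 chaperonin, 1 HSP90 and 1 HSP70 genes. These were 12.6% of the members at a gene end, against 12% of all protein-coding genes, 13.8% in all, against 15.7%, and 12.8% at a start, against 12.4%, so that the members were no longer clearly above the background. The 8 lost were CCT3, CCT5, CCT6A, DNAJA2, DNAJB9, HSP90AA1, HSP90B1 and HSPA9, at which each interval at the end is repeated in the list. Their highest scores ran from 27 at DNAJB9 to 80 at HSPA9. The median of the highest score per member fell from 35 to 30 in this setting, so it removed high-scored intervals too. Genes with an interval in the body only were 1 within 5 kb and 1 by the nearest end. DNAJC genes numbered 0 at a score of at least 30, 5 within 5 kb and 1 by the nearest end, and co-chaperones numbered 6 at a score of at least 30. Of 83 values under alternatives, 70 stayed within 1.5 times the reported count or, for the median score, within the spread between members. No paired analysis was possible because the series holds a single ChIP library without replicates, and for that reason no replicate could be left out.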

Other observations

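The members with an interval at a gene end were unevenly placed among chromosomes. On chromosome 7 they were 4 of 6 members (HSPB1, DNAJB6, DNAJB9 and CCT6A), where 13.6% of all protein-coding genes had one. On chromosome 2 they were 0 of 9, against 13.7%, and on chromosome 9 they were 0 of 5, against 24.2%. Chromosomes were compared after the values were seen and without a test.

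Chaperone genes have many pseudogene copies. Of 141 pseudogenes with symbols of these families, 1 (0.709%) had an interval at an end or in the body, compared with 0.504% of 17051 annotated pseudogenes. It was CCT6P1, with an interval of score 30 at chr7:65751167-65751477.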
